A study of Homo sapiens with 9 samples.

Results

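Genes named for the replication-dependent histone clusters were followed in RNA sequencing of EPC2 cells. They were taken as every gene of the deposited tables whose symbol begins with HIST1H, HIST2H, HIST3H or HIST4H on a primary chromosome, with its rows summed, which gave 70 genes (74 rows) of 23430. By class these were 6 H1, 17 H2A, 20 H2B, 13 H3 and 14 H4 genes. Of the 70, 56 belong to the HIST1 cluster on chromosome 6. HIST1H2APS1, HIST2H2BA and HIST2H2BC among them are pseudogenes and are counted with their class. EPC2 is a human esophageal epithelial line immortalised with telomerase reverse transcriptase, and all 9 libraries come from it. The ALI controls (3 libraries) carry a non-silencing control and were grown into a differentiated layer at the air-liquid interface. The ALI silenced libraries (3) are of cells treated alike with SPINK7 silenced, and 3 more are of non-silencing control cells left as an undifferentiated monolayer. All were fed epidermal growth factor (1 ng/mL) and pituitary extract (50 ug/mL). For the ALI cultures calcium was raised from 0.09 to 1.8 mM on day 2, the surface was exposed to air on day 7, and RNA was taken on day 14 per the labels, while the names of the deposited ALI tables say day 7. Which count of days those names use is not known. Neither the silencing construct nor the origin of the 3 libraries of a group (separate cultures or not) is described in the labels. The p-values therefore measure only how libraries spread, and part of that may be technical.

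Histones package DNA: H2A, H2B, H3 and H4 form the core of the nucleosome, and H1 binds the linker DNA between cores. Most genes of these clusters are transcribed in S phase and give an mRNA without introns that ends just after a conserved stem-loop, bound by the protein SLBP, in place of a poly(A) tail. Some of them can also be read on to a poly(A) signal further downstream, and polyadenylated histone mRNA is known from differentiated cells that have left the cell cycle. The libraries were made from poly(A)-selected RNA, a step that keeps RNA with tails. The deposited counts do not separate both kinds of mRNA.

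The stem-loop is shown because it is the sequence that sets the usual histone mRNA apart. It spans 16 bases, a stem of 6 bases on each side in capitals and a loop of 4 bases in lower case, and is printed 5′ to 3′ with T for U from GENCODE release 29 transcripts.
HIST2H2BE: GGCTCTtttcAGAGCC
HIST1H2AC: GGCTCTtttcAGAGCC
HIST3H2A: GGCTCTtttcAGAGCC
HIST1H2BG: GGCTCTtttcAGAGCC
HIST1H2BC: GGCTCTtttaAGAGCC
HIST1H2BD: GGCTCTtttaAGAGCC
HIST1H4H: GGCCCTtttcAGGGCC
The H2A and H2B genes shown share the stem, and HIST1H4H has another. Of all 206694 GENCODE transcripts, 0.0474% held a stem-loop of the histone form. A transcript of 30 of the 70 histone genes held one. For 32 of the 70, HIST1H1C, HIST1H2BK and HIST1H3D among them, the models hold coding sequence only, so the search could not reach their 3′ ends.

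Several transcript models run far past the stem-loop. The model of HIST2H2BE goes on for 1729 bases after it, the longest of HIST1H2AC for 1128, that of HIST1H2BG for 1059 and the longest of HIST1H4H for 1655. HIST1H2BD has 1 model that ends 39 bases after the stem-loop and another, of 789 bases, without it, and both have a poly(A) signal (AATAAA or ATTAAA) in their last 50 bases. Models with over 100 bases after the stem-loop were found for 5 of the 9 genes with at least 100 reads, 9 of the 13 with 10 to 99 reads, 6 of the 26 with 1 to 9 reads and 2 of the 22 with none. Coding-only models, which cannot show it, made up 3, 1, 13 and 15 of these groups in the same order. The 2 without a read are rows that name several genes, HIST2H3A with HIST2H3C and HIST2H4A with HIST2H4B. How reads shared by such copies were counted is not stated, so their lack of reads may not mean a lack of RNA. The rows of the deposited tables are short, with a median span of 461 bases. HIST1H2AC was counted over 546 bases, so reads from a longer 3′ end would fall outside its row.

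Promoters were compared because many H2A and H2B genes carry the octamer ATTTGCAT, the binding sequence of POU2F1 (OCT1), which is known for H2B transcription in S phase. The 250 bases before the start site are printed from RefSeq (GRCh38.p14), 5′ to 3′ on the gene's strand, with the octamer, on either strand, in capitals. The genes are the 2 that passed the test below and 2 H2B genes with and without an octamer.
HIST1H1C (chr6:26056471-26056720, minus strand): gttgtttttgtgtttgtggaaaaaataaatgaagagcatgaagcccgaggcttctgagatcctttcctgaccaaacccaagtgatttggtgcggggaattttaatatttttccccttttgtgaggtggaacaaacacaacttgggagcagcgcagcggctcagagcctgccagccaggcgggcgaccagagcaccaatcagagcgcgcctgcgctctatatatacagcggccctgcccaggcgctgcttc
HIST2H2BE (chr1:149886683-149886932, minus strand): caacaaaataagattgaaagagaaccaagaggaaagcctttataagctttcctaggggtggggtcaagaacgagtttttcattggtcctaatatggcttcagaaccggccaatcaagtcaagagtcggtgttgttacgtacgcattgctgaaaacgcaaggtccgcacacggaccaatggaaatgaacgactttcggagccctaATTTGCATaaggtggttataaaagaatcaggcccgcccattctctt
HIST1H2BC (chr6:26123927-26124176, minus strand): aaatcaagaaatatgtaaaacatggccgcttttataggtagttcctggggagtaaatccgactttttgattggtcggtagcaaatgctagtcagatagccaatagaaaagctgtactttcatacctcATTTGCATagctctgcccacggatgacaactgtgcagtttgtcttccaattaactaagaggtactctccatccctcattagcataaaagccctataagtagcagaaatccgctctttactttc
HIST1H2BD (chr6:26157871-26158120, plus strand): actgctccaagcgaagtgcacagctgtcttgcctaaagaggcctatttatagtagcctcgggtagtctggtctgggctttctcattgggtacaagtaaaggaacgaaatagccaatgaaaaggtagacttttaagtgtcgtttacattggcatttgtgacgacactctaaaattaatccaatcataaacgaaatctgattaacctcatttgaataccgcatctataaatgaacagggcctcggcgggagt
An octamer stood in the window of 26 of the 62 histone genes with a RefSeq promoter, against 1.63% of 35116 windows of this length. It stood in 11 of 15 H2A, 14 of 18 H2B and 1 of 11 H3 genes and in none of 6 H1 and 12 H4 genes. The sequence CCAAT, searched on both strands, stood in 53 of 62 histone windows against 32.0% of all windows, and in 3 of 12 H4 windows. The sequence TATAAA, searched likewise, stood in 42 of 62 against 10.7%. Each motif was searched on its own, so overlapping matches each count, and a match describes the window only.

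The libraries of a group differed in ways that touch every value below. They held 7641960 to 14009746 counts. The ALI libraries numbered 2 stood apart from both others of their group, with a chi-square of 71.3 to 160 per degree of freedom over genes, against 16.8 (control) and 25.5 (silenced) between libraries 1 and 3. Monolayer libraries 2 and 3 were much closer (1.91) than either was to library 1 (34.2 and 32.0). SPINK7, the silenced protease inhibitor gene, was at 229, 261 and 225 CPM (counts relative to the library total, scaled by TMM) in the ALI controls, 20.9, 38.6 and 32.7 CPM in the silenced cells and 0.212 to 0.745 CPM in the monolayers, which follows the labels. All 12 squamous differentiation markers rose in the ALI controls over the monolayers, and 6 of the 12 fell on silencing. Of 8 basal markers 2 rose and 3 fell between the control cultures. By the same test 20.3% of all genes rose and 20.2% fell between the control cultures, and 0.703% fell on silencing. PTPRC (leukocytes), LUM (fibroblasts), TYR and DCT (melanocytes) were at 0 in all libraries. The 6 leukocyte markers summed to 53.2 to 70.5 CPM in ALI controls, 67.1 to 95.4 in silenced cells and 16.4 to 29.3 in monolayers, of which CD68, at 15.4 to 87.0 CPM, was the main part. CD14 was highest in the libraries numbered 2, at 1.07, 11.1 and 1.90 CPM in ALI controls and 0.374, 8.24 and 0.468 CPM in silenced cells. The 4 endothelial markers summed to 3.03 to 9.62, 1.40 to 2.34 and 0.304 to 0.567 CPM, led by VWF in each ALI library, while VWF was at 0.354, 0 and 0.106 CPM in the monolayers. The 6 fibroblast markers summed to 11.6 to 48.3, 20.5 to 45.3 and 49.5 to 185.3 CPM, nearly all COL1A1, and the 4 melanocyte markers to 1.64 to 3.28, 0.934 to 1.99 and 0.745 to 1.98 CPM. The part of any of these in the histone values was not tested.

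Histone reads were rare and came from few genes. They numbered 9563 over all libraries, 0.00564 to 0.0217% of the counts of a library. No read was found for 22 of the 70 genes, 1 to 9 reads for 26, 10 to 99 for 13 and at least 100 for 9. The 22 include the joint entries of HIST2H2AA3 and HIST2H2AA4, of HIST2H3A and HIST2H3C, and of HIST2H4A and HIST2H4B. How reads shared by such copies were counted is not stated. A count of 0 in all 9 libraries allows up to 0.0328 CPM (3 counts of the total, counting error only). HIST1H2BK (2427 reads), HIST2H2BE (2056), HIST1H1C (1344), HIST1H2BD (1332), HIST1H2AC (1122) and HIST1H2BC (298) together held 89.7% of the reads. H2B genes held 67.6% of histone reads, H1 and H2A genes 14.4% each, H3 genes 2.48% and H4 genes 1.15%. Of the 14 H4 genes none reached 100 reads, and HIST1H4H led them with 86. These shares rest on read counts, which grow with the length of a row. On the deposited RPKM scale (reads per kilobase, relative to library size), which allows for length, the means over the 9 libraries were 26.2 for HIST1H2BK, 18.1 for HIST1H2AC, 16.8 for HIST1H1C, 14.4 for HIST1H2BD, 8.16 for HIST2H2BE and 5.84 for HIST1H2BC. These orders pool unlike libraries and do not hold in each group. HIST2H2BE was above HIST1H2BK in CPM in all 3 silenced libraries. The row of HIST2H2BE spans 2223 bases, and per length its mean was 13.7 RPKM there against 27.7 RPKM of HIST1H2BK.

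**Figure D1:**
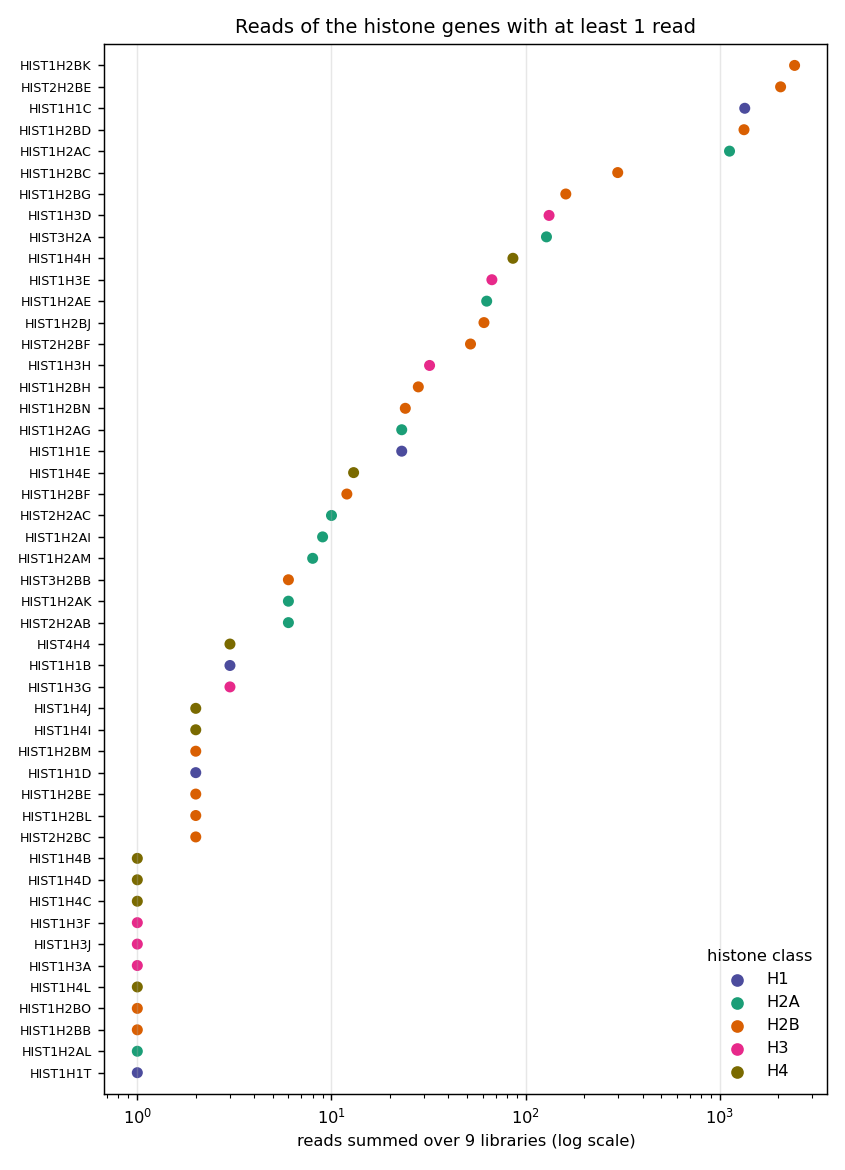
Reads summed over the 9 libraries for each histone gene with a read, by class (log scale); the 22 genes with none are not drawn. 5 of the 9 genes with at least 100 reads are H2B genes, and no H4 gene reaches that number.

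H2A and H2B genes often stand head to head and share the stretch between their start sites. The files hold 13 such pairs, with 240 to 347 bases between the start sites (median 276). Both genes had a read in 8 pairs, 1 of them in 4 pairs and neither in 1. The H2B gene had more reads in 8 pairs and the H2A gene in 4. The pairs with reads in 1 gene include HIST2H2BC, a pseudogene, beside the joint entry of HIST2H2AA3 and HIST2H2AA4, which had none. HIST1H2BK had 2427 reads and its partner HIST1H2AH none. HIST2H2BE had 2056 reads and HIST2H2AC 10. HIST1H2AC had 1122 reads against 298 of HIST1H2BC, and 18.1 against 5.84 RPKM. The window printed above for HIST1H2BC therefore also lies before HIST1H2AC. HIST3H2A had 128 reads against 6 of HIST3H2BB. Both partners had at least 10 reads in 4 pairs. Reads within these pairs were thus often unequal, but the rows of partners differ in length. HIST1H2BK was counted over about 839 bases and HIST2H2BE over 2223, against 439 for HIST1H2AH and 437 for HIST2H2AC. Reads from a longer 3′ end would fall outside the short rows. Per length HIST2H2BE was at 8.16 RPKM and HIST2H2AC at 0.197. The row of HIST1H2AD, a partner without a read, shares 453 bases with HIST1H3D on the same strand, so its reads may be assigned either way.

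**Figure D2:**
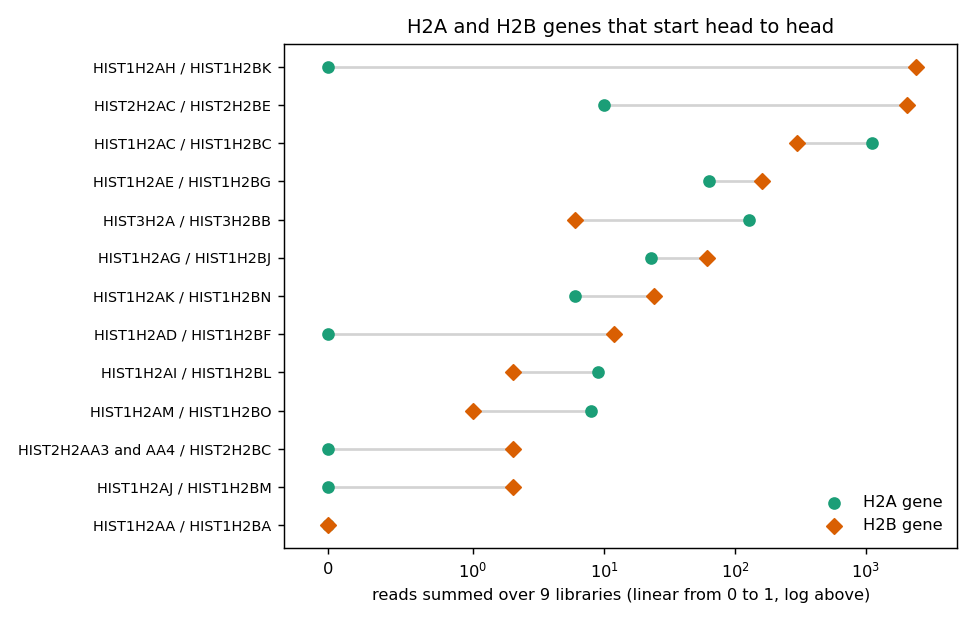
Reads of the H2A and the H2B gene of each of the 13 divergent pairs, summed over the 9 libraries (axis linear from 0 to 1 and logarithmic above). The pair of HIST1H2AH and HIST1H2BK, with 0 and 2427 reads, is the most unequal in reads.

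The question of the first comparison is how histone mRNA differs between control cells differentiated at the air-liquid interface and control cells in monolayer. HIST1H1C, which encodes linker histone H1.2, and HIST2H2BE, which encodes an H2B, rose in the ALI controls, 3.29-fold and 2.84-fold. No tested histone gene fell. Of the 70 genes 10 had enough reads to be tested, and they held 95% of the histone reads. Among all 12806 genes tested 20.3% rose, so 2 of 10 is close to the background and is no result about histone genes as a group (edgeR quasi-likelihood test, Benjamini-Hochberg adjusted p under 0.05). Of all genes 20.2% fell and 40.5% passed in either direction. An unadjusted p under 0.05 was reached by 5 of the 10, against 50.0% of all genes. When 1 library was left out, 1 to 6 histone genes rose: 6 without silenced library 2, 4 without control library 3, and 1 without monolayer library 2 or 3. The share of all genes that rose in these fits is not given here. The counts therefore show only how the calls move with the libraries. In bulk RNA, fewer cells with a transcript and less of it per cell cannot be told apart. All 10 fold changes were above 0, against 51.2% of all genes, with a median log2 fold change of 1.19 against 0.0276. The filter on reads took in every group, so a low gene could enter through its ALI libraries alone. HIST3H2A (0.304 to 0.637 CPM in the monolayers) and HIST1H2BG (0.745 to 0.911 CPM) were lower in every monolayer than in any ALI library. The shared sign is therefore no result about histone genes as a group.

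H1 was led by 1 gene. HIST1H1C (chr6:26055968-26056699, hg19, minus strand) was at 17.8, 21.4 and 20.7 CPM in the ALI controls and 6.44, 5.57 and 6.17 CPM in the monolayers. All ALI controls were above all monolayers, and the spread within a group was small. The log2 difference was 1.72 (SE 0.30, 95% interval 0.98 to 2.46, edgeR adjusted p = 0.00162, 3.07e-06 to 0.0112 over the alternatives). HIST1H1E, another linker histone gene, had 0, 5 and 2 reads in the ALI controls and 1, 2 and 1 in the monolayers and was not tested. Summed over the class, H1 was at 20.3 ± 2.22 CPM in the ALI controls and 6.22 ± 0.327 in the monolayers (SD, n = 3 each).

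H2A pairs with H2B in the nucleosome core, and 2 of its 17 genes were tested. HIST1H2AC (chr6:26124373-26124918, plus strand) was at 8.71, 34.2 and 9.94 CPM in the ALI controls and 6.23, 5.87 and 3.09 CPM in the monolayers. The groups did not overlap, but ALI control library 2 was at 3.67 times the mean of the other 2. The log2 difference was 1.79 (SE 0.67, edgeR adjusted p = 0.0547) and did not pass; over the alternatives the adjusted p ran from 0.0109 to 0.261. Without both ALI libraries numbered 2 the difference was 0.87 and passed (edgeR adjusted p = 0.0341). HIST3H2A (chr1:228645065-228645560, minus strand) was at 1.34, 2.27 and 1.06 CPM against 0.637, 0.304 and 0.426 CPM, a log2 difference of 1.70 (SE 0.65, edgeR adjusted p = 0.0599).

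H2B held most of the reads, and 5 of its 20 genes were tested. HIST2H2BE (chr1:149856010-149858232, minus strand) was at 26.2, 22.5 and 16.5 CPM in the ALI controls and 12.6, 4.96 and 5.11 CPM in the monolayers. Every ALI control was above every monolayer. The log2 difference was 1.51 (SE 0.43, 95% interval 0.46 to 2.56, edgeR adjusted p = 0.0190). It did not pass without ALI control library 1 (adjusted p = 0.0574), monolayer library 2 (0.0745) or monolayer library 3 (0.0730), or with the last 2 summed as 1 library (0.0711).

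The other H2B genes did not pass. HIST1H2BC (chr6:26123695-26124132, minus strand) was at 2.41, 4.54 and 2.75 CPM against 1.35, 1.82 and 1.17 CPM, with no overlap (log2 difference 1.16, edgeR adjusted p = 0.123). HIST1H2BG lies outside the naming rule and was picked once its values were known; it stood at 1.61, 2.90 and 1.27 CPM against 0.779, 0.911 and 0.745 CPM (1.23, edgeR adjusted p = 0.0607). HIST1H2BD (chr6:26158349-26171576, plus strand), with 33.9 CPM in control library 2, was at 8.84 and 7.61 CPM in the other 2 and 7.08 to 8.57 CPM in the monolayers (1.06, edgeR adjusted p = 0.237; 0.038 without control library 2). HIST1H2BK (chr6:27106072-27114637, minus strand) was at 24.1, 47.8 and 17.7 CPM against 21.7, 21.6 and 21.9 CPM, so that 1 ALI control lay below the monolayers (0.45, edgeR adjusted p = 0.418). Of the 10 genes tested, 6 had no overlap with the ALI controls higher (HIST1H1C, HIST1H2AC, HIST3H2A, HIST2H2BE, HIST1H2BC and HIST1H2BG), against 27.3% of all genes. In either direction it was the same 6 of the 10, against 57.3%. The limit of the read filter given above holds for HIST3H2A and HIST1H2BG among them. HIST2H2BF, not tested and picked once its values were known, separated the other way. It was at 0.402, 0.378 and 0.106 CPM in the ALI controls and 0.708, 0.708 and 0.745 CPM in the monolayers (7 against 24 reads). The span of HIST1H2BK holds HIST1H4I on the other strand.

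H3 and H4, which form the tetramer at the heart of the nucleosome, were near the detection limit. HIST1H3D (chr6:26197012-26199464, minus strand) was at 1.47, 2.14 and 0.317 CPM in the ALI controls and 0.637, 1.11 and 1.60 CPM in the monolayers, a log2 difference of 0.23 (SE 0.80, edgeR adjusted p = 0.836). Its row overlaps that of HIST1H2AD on the same strand by 453 bases, so reads of that pair may be assigned either way. HIST1H3E had 4, 6 and 3 reads against 8, 7 and 8 and was not tested. HIST1H4H (chr6:26285354-26285727, minus strand) had 2, 16 and 1 reads against 6, 10 and 8 (log2 difference 0.07, SE 0.89, edgeR adjusted p = 0.959). HIST1H4E had 0, 3 and 0 reads against 3, 1 and 2. Differences in these classes were not detectable at this depth.

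**Figure D3:**
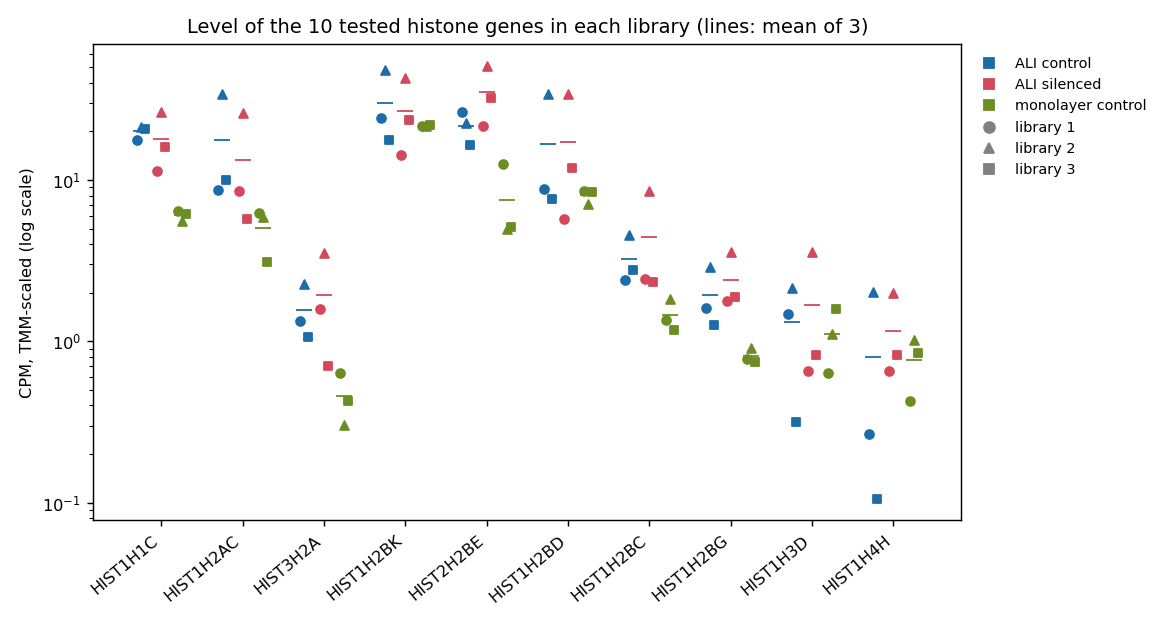
Level in CPM (TMM, log scale) of the 10 tested histone genes in each of the 9 libraries; lines are the means of 3 libraries. HIST1H1C is at 17.8 to 21.4 CPM in the ALI controls and 5.57 to 6.44 in the monolayers, while HIST1H2AC and HIST1H2BD are high in the ALI libraries numbered 2.

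The second comparison asks what silencing of SPINK7 changes in the differentiated cells. None of the 10 tested histone genes passed in either direction, while 0.929% of all 12806 genes did, 0.226% higher and 0.703% lower in the silenced cells. None had an unadjusted p under 0.05 by edgeR, against 9.16% of all genes, and none had an adjusted p under 0.05 by DESeq2. None of the 10 separated the groups without overlap, against 12.1% of all genes (5.76% with the silenced cells higher). HIST1H2AM, not tested and picked once its values were known, had 0 reads in each ALI control and 1, 3 and 2 reads in the silenced libraries. Fold changes were above 0 for 7 of the 10 tested genes, against 50.6% of all genes, with a median log2 difference of 0.35 against 0.00585. On data simulated from these libraries, the test recovered 23.9% of the genes changed by 1 on the log2 scale and 89.6% of those changed by 2. The changed genes were drawn only from mean levels above those of HIST3H2A, HIST1H2BC, HIST1H2BG, HIST1H3D and HIST1H4H, so the rates do not apply to these. Each library was simulated on its own, without the shared rise of the ALI libraries numbered 2 described below.

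The values in the silenced libraries spread around those of the controls. HIST1H1C was at 11.4, 26.2 and 16.04 CPM, a log2 difference from the controls of -0.16 (SE 0.29, 95% interval -0.86 to 0.55, edgeR adjusted p = 0.878). HIST2H2BE was at 21.6, 51.1 and 32.3 CPM (0.69, SE 0.41, 95% interval -0.32 to 1.70, edgeR adjusted p = 0.676). HIST1H2AC was at 8.50, 25.9 and 5.74 CPM (-0.38, 95% interval -1.94 to 1.17, edgeR adjusted p = 0.869). The interval of HIST1H1C leaves room for less than a doubling in either direction, and that of HIST1H2AC for a far larger change. HIST1H2BD was at 5.70, 33.9 and 11.8 CPM (0.04, edgeR adjusted p = 0.989), HIST1H2BK at 14.3, 42.7 and 23.4 CPM (-0.15, edgeR adjusted p = 0.926) and HIST1H2BC at 2.43, 8.52 and 2.34 CPM (0.47, edgeR adjusted p = 0.802). The other 4 tested genes had log2 differences of 0.34 to 0.59 and edgeR adjusted p of 0.831 to 0.876. Both comparisons share the ALI controls.

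**Figure D4:**
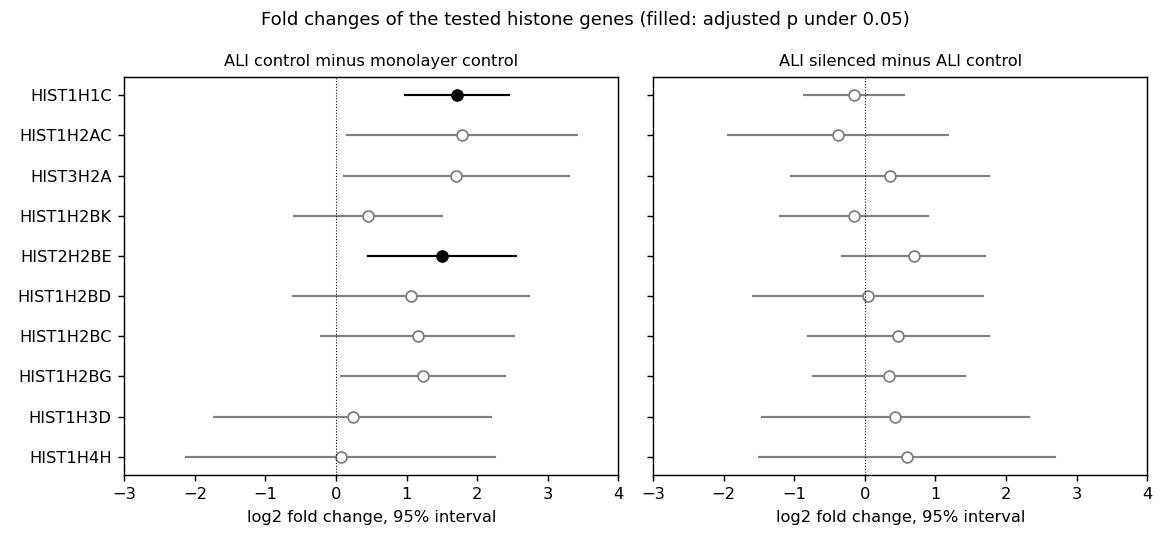
Log2 difference of the 10 tested histone genes in both comparisons, with 95% intervals; filled points passed the test. In the comparison with the monolayers the unadjusted intervals of 5 genes lie above 0, with HIST1H1C and HIST2H2BE past the adjusted threshold, and all 10 intervals span 0 in the silencing comparison.

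The ALI libraries numbered 2 held the most histone reads of their groups. Control library 2 was the highest of its group for 9 of the 10 tested genes, all but HIST2H2BE, against 41.9% of all genes tested, and silenced library 2 for 10 of 10, against 38.7%. Over all 70 genes the summed level was 96.6, 179.7 and 81.0 CPM in the ALI controls, 73.8, 209.2 and 100.3 CPM in the silenced libraries and 64.0, 55.1 and 54.3 CPM in the monolayers. The gap differed between genes. Library 2 was at 1.11 (control) and 1.91 (silenced) times the mean of the other 2 for HIST1H1C, 3.67 and 3.64 times for HIST1H2AC, 4.12 and 3.87 times for HIST1H2BD and 2.29 and 2.26 times for HIST1H2BK. HIST1H2AC and HIST1H2BD thus depart most among these in both groups. CD14, a myeloid marker given above, was also highest in both libraries numbered 2, and PTPRC was at 0 in every library; its part in the histone values was not tested.

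The same libraries had the lowest sums of cell cycle genes in their groups, though not for every S phase gene. All 15 G2 and M phase genes were lowest there in both groups. Of the 25 S phase genes 16 were lowest in control library 2 and 24 in silenced library 2, while 6, among them PCNA (61.1, 89.0 and 69.8 CPM in the ALI controls), were highest in control library 2. PCNA and CD14 lie outside the naming rule and were chosen with their values known. Within each ALI group the 9 cell cycle exit genes had their highest sums in these libraries. The sums were 1660 CPM in control library 2 against 1406 and 1385, and 1907 CPM in silenced library 2 against 1465 and 1409. In the monolayers, with lower histone sums, the same 9 genes summed to 1880, 1996 and 1938 CPM. Of the 9, 4 were highest and 2 lowest in control library 2, and 6 were highest and 2 lowest in silenced library 2. CDKN1A was the largest part, at 642, 865 and 757 CPM in the ALI controls. MKI67, a marker of cycling cells, was at 39.6, 0.757 and 42.1 CPM in the ALI controls, 105.8, 0.893 and 74.8 CPM in the silenced libraries and 3.89, 13.9 and 11.1 CPM in the monolayers. The 15 G2 and M phase genes summed to 259, 46.9 and 285.0 CPM, 616, 28.9 and 539 CPM, and 44.3, 98.2 and 90.8 CPM. The 25 S phase genes summed to 446, 415 and 493 CPM in the ALI controls and 791, 292 and 900 CPM in the silenced libraries, and to 345 to 363 CPM in the monolayers. In the silencing comparison the median log2 difference was 0.94 for the S phase and 1.13 for the G2 and M phase genes, and none of either list passed. Of the 12 squamous markers 8 were lowest and 3 highest in library 2 of each ALI group, and of the 8 basal markers 6 were lowest. The squamous markers summed to 18200, 10150 and 17290 CPM in the ALI controls and 4383, 6291 and 6282 CPM in the silenced libraries. The basal markers summed to 34920, 16250 and 42940 CPM and to 52000, 25470 and 39750 CPM. The part of all these lists in the histone values was not tested. Among the ALI libraries, summed histone levels in poly(A)-selected RNA were highest in those numbered 2, where the G2 and M phase genes were lowest. The pattern rests on these 2 libraries, and HIST2H2BE was not highest in control library 2. It did not extend to the monolayers, which had the lowest histone sums with G2 and M phase sums of 44.3, 98.2 and 90.8 CPM.

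**Figure D5:**
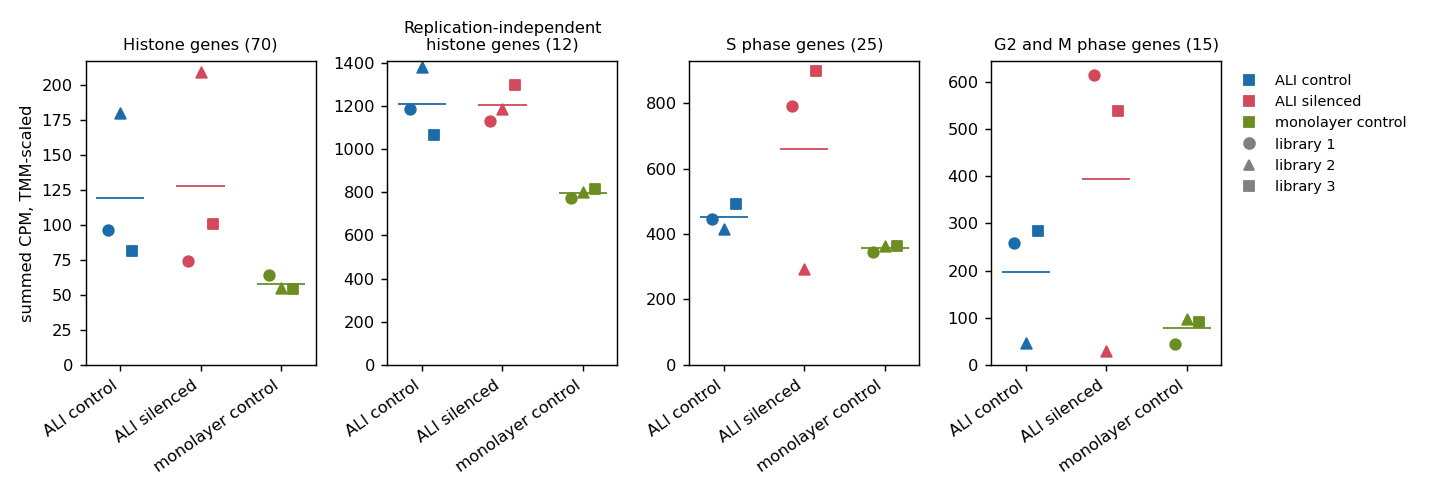
Summed CPM (TMM) of the histone genes beside the replication-independent histone variants, the S phase and the G2 and M phase genes in each library; lines are the means of 3 libraries, and each panel has its own axis from 0. The ALI libraries numbered 2, with 179.7 and 209.2 CPM of histone genes, have 46.9 and 28.9 CPM of G2 and M phase genes.

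Small RNAs without a tail were summed beside them, as RNA that poly(A) selection should remove. Of 24 listed small RNAs without poly(A) tails 12 are in the files, and they summed to 1.61, 12.5 and 1.69 CPM in the ALI controls, 9.62, 4.26 and 1.87 CPM in the silenced libraries and 0.506 to 2.77 CPM in the monolayers. Control library 2 was the highest of its group, and silenced library 2 was not. RPPH1, the RNA of ribonuclease P, made up much of it, at 0.938, 8.70 and 1.06 CPM in the ALI controls. The part of such RNA in the histone values was not tested.

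Replication-independent histone variants, which can be made outside S phase, were listed beside them. Of 12 listed 11 were tested. In the ALI controls over the monolayers 4 rose and none fell, against 20.3% and 20.2% of all genes tested. The median log2 difference was 0.56 against 0.0276 of all genes. None of the 11 passed in the silencing comparison. H2AFJ was at 35.8, 42.0 and 45.3 CPM against 7.93, 9.21 and 6.92 CPM (2.35, edgeR adjusted p = 0.000305). H1F0, the linker histone H1.0 known from differentiated cells, was at 159, 175 and 111 CPM against 50.1, 53.4 and 50.3 CPM (1.53, edgeR adjusted p = 0.00190). H2AFZ, the variant H2A.Z, was at 113, 293 and 100.3 CPM against 76.3, 72.4 and 84.7 CPM (1.12, edgeR adjusted p = 0.0359). All 3 rose, and of them H2AFZ has the ALI control numbered 2 far above the rest. H3F3B, which encodes H3.3, was the remaining call.

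Genes that make, end and carry histone mRNA and protein were listed as well. Beside the counts below, 20.3% of all genes tested rose and 20.2% fell, and no list was tested as a whole. Of 14 tested genes of histone mRNA processing and transcription 2 rose and 1 fell in the ALI controls: CPSF3, the nuclease that cuts the pre-mRNA, by 0.61 on the log2 scale (edgeR adjusted p = 0.0254), E2F1, an S phase factor, by 2.18 (0.02003), and POU2F1 was lower, with a log2 difference of -0.88 (0.00968). SLBP was at 52.9, 66.0 and 44.3 CPM against 42.4, 34.9 and 36.6 CPM and did not pass (0.52, edgeR adjusted p = 0.0765). Of 16 histone chaperones 1 fell, CABIN1, a subunit of the HIRA complex (-1.58, edgeR adjusted p = 0.0134). Of the 25 S phase genes 4 rose and 1 fell. POLA1, a subunit of DNA polymerase alpha, rose (1.05, edgeR adjusted p = 0.0165) and TYMS, thymidylate synthase, fell (-1.73, edgeR adjusted p = 0.0233). E2F8 had no read in any monolayer and 0.631 to 2.64 CPM in the ALI controls. None of the 15 G2 and M phase genes passed. Of 9 cell cycle exit genes CDKN2B (1.63, edgeR adjusted p = 0.00348) and BTG2 (0.91, edgeR adjusted p = 0.00617) rose and CDKN1A, which encodes p21, fell (-0.89, edgeR adjusted p = 0.0190). In the silencing comparison no gene of these 5 lists passed.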

How the data were processed

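RNA of EPC2 cells was sequenced in 9 stranded poly(A)-selected libraries, per the labels' protocols. The deposited read counts per annotated row, with RPKM beside them, are the authors' values. STAR 2.4.2a, Bowtie, MACS2 and hg19 are named in the submitters' processing notes, without roles; the counter used, its strand setting and its handling of reads shared by similar genes are not stated there or in the labels. RPKM, a read density per kilobase deposited by the authors, was used only to compare levels between genes. Counts were summed per symbol and chromosome. Genes with enough reads (filterByExpr, 12806) were scaled by TMM and fitted over all 9 libraries with edgeR 4.0.16 (R 4.3.3, limma 3.58.1; robust quasi-likelihood, 6 residual degrees of freedom, Benjamini-Hochberg threshold 0.05); SE came from the F statistic. The test was checked on simulated data. DESeq2 1.42.0 and 16 other settings were alternatives. Rows that name several genes (511) took part as joint entries; 3 joint histone entries were at 0. Alternate contigs were left out. Depth was 7641960 to 14009746 counts.

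The members and gene lists were chosen with earlier results of these data known. Named histone genes are those past the threshold, the 2 of each class with the highest mean CPM, and HIST1H1C, HIST1H2AC, HIST1H2BC, HIST1H2BD, HIST1H2BK, HIST2H2BE and HIST1H4H, known in polyadenylated form; from each list up to 3 genes past the threshold were named. Transcripts are GENCODE release 29 and promoters RefSeq GRCh38.p14, other builds than the counts; the sequences are not matched to hg19 coordinates.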

Additional observations from a re-analysis of the deposited data

How the results depend on the processing

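Over 17 alternatives per comparison, no histone gene passed in the silencing comparison and none fell in the comparison with monolayers. The count that rose, 2, was 4 with DESeq2's Wald test, 4 with only the 2 groups in the fit, 1 with monolayer libraries 2 and 3 summed (an alternative chosen after seeing the data), and 1 to 6 when 1 library was left out (the libraries are named in the text). The share of all genes that rose in these fits, and in the blocked fit below, is not given. Such counts are no result about histone genes as a group. HIST1H1C passed in 17 of 17 (log2 difference 1.67 to 1.80), HIST2H2BE in 13 and HIST1H2AC in 7. Replicate numbers did not pair the libraries throughout. Deviations of same-numbered control and silenced ALI libraries correlated at 0.495, 0.577 and -0.006, and of ALI and monolayer controls at -0.156, -0.217 and -0.013. Control library 2 correlated at -0.691 and -0.109 with silenced libraries 1 and 3, and control library 3 at 0.637 with silenced library 1. A batch shared by ALI libraries of the same number was not tested. In a fit blocked on replicate number, 3 histone genes rose and none passed on silencing; HIST1H2AC was at 1.53 (edgeR adjusted p = 0.0109) and HIST1H4H at -0.30. Signs turned for values that had not passed, and the cause was not tested. Without both ALI libraries numbered 2, the silencing values were -0.12 for HIST1H2BC, -0.22 for HIST1H3D and -0.021 for HIST3H2A, and those against monolayers -0.059 for HIST1H2BK and -0.34 for HIST1H3D. With 1 library left out, the silencing values ran as follows: HIST1H1C -0.57 to 0.085, HIST1H2AC -1.31 to 0.54, HIST1H2BC -0.45 to 0.80, HIST1H2BD -0.95 to 1.07, HIST1H2BG -0.086 to 0.77, HIST1H2BK -0.68 to 0.37, HIST1H3D -0.81 to 1.01, HIST1H4H 0.041 to 2.66, HIST2H2BE 0.29 to 0.94, HIST3H2A -0.42 to 0.74. Those against monolayers ran as follows: HIST1H1C 1.67 to 1.80, HIST1H2AC 0.88 to 2.11, HIST1H2BC 0.84 to 1.35, HIST1H2BD 0.038 to 1.42, HIST1H2BG 0.82 to 1.47, HIST1H2BK -0.058 to 0.73, HIST1H3D -0.33 to 0.72, HIST1H4H -1.98 to 0.62, HIST2H2BE 1.28 to 2.10, HIST3H2A 1.33 to 2.05. Summing the joint histone entries could change nothing, since they are at 0 in every library, and was not run. Reads lost or moved between other similar histone genes cannot be judged from these counts. Low genes had no value where they missed the filter, HIST1H4H without silenced library 2 among them. Depth limits H3 and H4, and the 60 genes not tested.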
